A study of Bos taurus with 12 samples.

Results

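The genes described here make, carry and terminate second messenger and MAP kinase signals in bovine chromaffin cells, which secrete catecholamines from the medulla of the adrenal gland and were studied here in culture. They were chosen by symbol, as every gene of the DUSP, RGS, PDE, SPRY, SPRED, ADCY, PRKAC, PRKAR, PRKAG, PRKC, PLC, ITPR, CAMK, AKAP, DGK, MAPK, MAP2K and MAP3K name families for which the platform's probe table gave a probe set with a single symbol. This gave 109 genes on 168 probe sets, of 9155 genes with a single symbol and 24016 probe sets tested. Each gene is represented by its brightest probe set, the one with the highest mean over the 12 arrays. The values are log2 expression values, and the symbol rule uses no measured response.

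Cells were kept untreated, or exposed to interleukin-6 (IL6, 10 nM, 24 h), to human interferon alpha (IFNα, 1 nM, 24 h), or to histamine (10 µM, 6 h), with 3 single-colour arrays in each of the 4 groups. All 4 groups are cultured cells labelled as coming from adrenal glands, and the labels name no animals. The control has no stated time. The submitters call the triplicates technical repeats, so every p-value measures only the spread between these arrays and not that between cultures or animals. Histamine differs from the cytokines in agent and in time together, and these cannot be told apart.

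Several receptors of the chromaffin cell converge on these families. The histamine H1 receptor couples to Gq, which activates phospholipase C beta (the PLCB genes). Phospholipase C makes inositol trisphosphate, which opens calcium stores through its receptors (ITPR1 to ITPR3), and diacylglycerol, which activates protein kinase C (PRKC) and is removed by diacylglycerol kinases (DGK). Adenylyl cyclases (ADCY) make cAMP, which acts on protein kinase A (PRKAC and PRKAR subunits, anchored by AKAP proteins) and is hydrolysed by phosphodiesterases (PDE). Both routes, and the gp130 receptor used by IL6, feed the MAP kinase relay of MAP3K, MAP2K and MAPK. RGS proteins switch off G proteins, SPRY and SPRED proteins restrain the RAS-ERK pathway, and DUSP phosphatases inactivate MAP kinases. The last 3 groups are often transcribed in response to the signal they dampen.

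Some names in the families belong to genes with other roles. PRKAG1 is a subunit of AMP-activated kinase, PRKCSH of a glucosidase, and SPRYD3, SPRYD4 and SPRYD7 share a domain name and not the Sprouty fold. ADCYAP1R1 is the PACAP receptor, ITPRIP binds inositol trisphosphate receptors, CAMK2N2 inhibits CaM kinase II, and CAMKMT methylates calmodulin. MAPK8IP1, MAPK8IP2 and MAPK8IP3 are scaffolds of the JNK pathway. They are counted as members because the symbol rule takes them in. DUSP4, DUSP5, DUSP6, RGS2, RGS4, SPRY4, PDE4B, PDE4D, PDE10A, ADCYAP1, PRKCE, PLCB3, PLCG2, CAMK2B, CAMK4, AKAP12, DGKH, DGKI, MAP3K5 and MAP3K8 were looked for by symbol and had no probe set with that single symbol here, so they were not analysed.

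Arrays agreed closely within groups (correlations of 0.993 to 0.998 across probe sets), and the median SD of a member over 3 arrays ran from 0.07 to 0.09 log2 units. Chromaffin markers were bright in untreated cells (TH 13.45, CHGA 13.62, PENK 13.89), and probe sets of cortical (HSD3B1 8.16), fibroblast (DCN 13.04) and Schwann cell (S100B 9.98) genes also read above the lower quartile. A list of 10 glycolysis and hypoxia genes set 3 arrays apart. Its mean lay 1.00 (IL6 repeat 2), 1.496 (IL6 repeat 3) and 1.11 (IFNα repeat 3) log2 units above the untreated mean, and between -0.03 and 0.39 on the other 9. These are called the raised-hypoxia arrays below. Values of members after the cytokines were also computed without them, which keeps IL6 repeat 1 alone and assumes that it varies like the other groups. They are given beside a result where that ends or makes a call against untreated, turns the direction, or moves a log2 change of 0.2 or more by over 1.5 times. In bulk RNA, fewer cells of a type and less RNA per cell cannot be told apart. A mean under each array's lower quartile (these ran from 5.02 to 5.11) was found for 16 of the 109 members, among them PDE1A, PDE5A, PDE7B, ADCY4, ADCY8, ADCYAP1R1, RGS9, RGS13 and 4 photoreceptor phosphodiesterase subunits, and small changes of such dim transcripts are compressed.

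A member was called when limma's adjusted p was under 0.05 and the fold was at least 1.5, with adjustment over all 24016 probe sets. The members SPRY2, DUSP1, RGS1, ADCY2, PRKACB, PRKAR2A, AKAP4, AKAP5, CAMK2G, MAPK3 and MAP2K6 were called after at least 1 treatment, 11 of 109, where 9.85% of all probe sets were. After IL6, 2 rose and 2 fell (background 1.44% higher and 0.949% lower). After IFNα, 2 rose and 2 fell (background 2.18% and 1.18%), and after histamine 4 rose and 3 fell (background 2.99% and 2.71%). These shares, 2 to 4 of 109, lie near the background, and the results below are about single members. The comparisons with untreated share the same 3 control arrays. In the F test over the 4 groups 61 members differed (56.0%), against 49.1% of all probe sets and 60.5% of the brightest probe sets of all genes. The members' median log2 changes were -0.01 (IL6), -0.04 (IFNα) and -0.05 (histamine), beside 0.003, -0.02 and -0.002 over all probe sets.

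**Figure D1:**
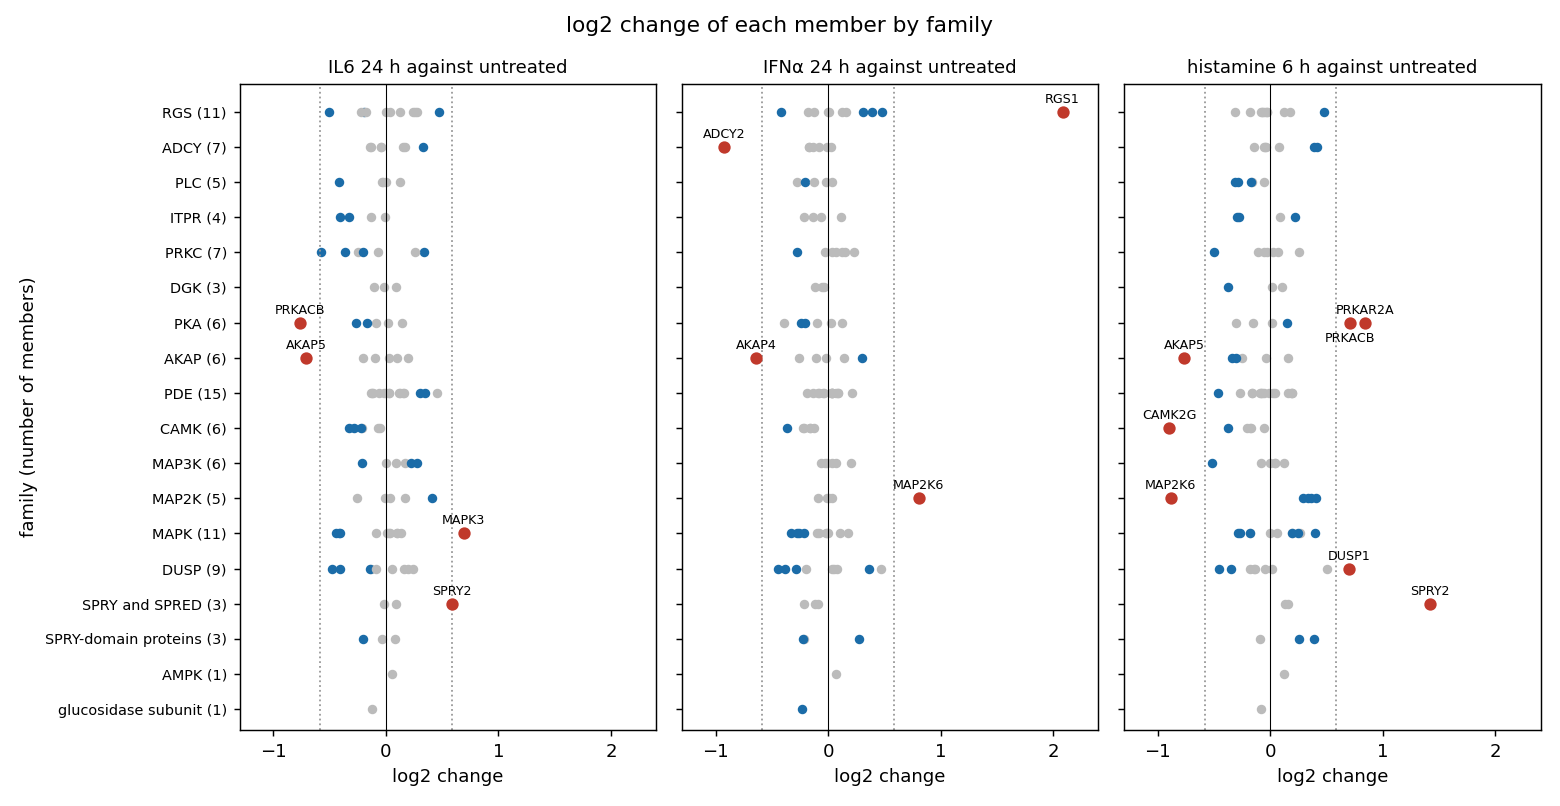
log2 change against untreated (x axis) of each member in its family (y axis, with the number of members), for IL6, IFNα and histamine. Red points are called (limma; dotted lines mark the 1.5-fold minimum), blue points pass the adjusted p alone and grey points neither. Most members lie within the dotted lines, and RGS1 after IFNα (2.08) and SPRY2 after histamine (1.42) lie farthest out.

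Among feedback inhibitors of the RAS-ERK pathway, SPRY2, the Sprouty protein that dampens growth factor receptor signalling to ERK, had the largest response to histamine of all members. SPRY2 read 7.57, 7.45 and 7.59 on the untreated arrays and 8.87, 8.87 and 9.13 after histamine. After IL6 it read 8.10, 8.20 and 8.07, and after IFNα 7.34, 7.24 and 7.39. The 4 groups did not overlap: histamine was highest, then IL6, then untreated, then IFNα. Histamine raised it 2.68-fold (log2 change 1.42, SE 0.08; limma, adjusted p = 1.10e-08). IL6 raised it 1.5-fold (log2 change 0.59, adjusted p = 0.000118), just over the fold minimum. That IL6 call was lost without untreated repeat 2 (0.54), without IL6 repeat 2 (0.55) or without the raised-hypoxia arrays (0.56). IFNα gave a log2 change of -0.21 (adjusted p = 0.0804). Directly compared, SPRY2 was 1.78-fold higher after histamine than after IL6 (adjusted p = 1.61e-06) and 1.74-fold higher after IL6 than after IFNα (adjusted p = 1.86e-06). SPRY1 and SPRED1, the other measured inhibitors of this family, had log2 changes of 0.13 and 0.16 after histamine and between -0.11 and 0.09 after the cytokines, and none was called. Without the raised-hypoxia arrays SPRY1 had -0.37 after IL6 (adjusted p = 0.0924).

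DUSP1, a nuclear phosphatase of p38, JNK and ERK that is a classical immediate early gene, rose after histamine. It read 9.13, 9.10 and 9.14 untreated and 9.92, 9.93 and 9.62 after histamine, a 1.62-fold rise (log2 change 0.70, SE 0.07; limma, adjusted p = 3.97e-06). After IL6 it read 9.29, 9.33 and 9.33, all above the untreated arrays, and the log2 change of 0.19 was not called (adjusted p = 0.0822). After IFNα it read 8.83, 8.77 and 8.92, all below them, with a log2 change of -0.28 (adjusted p = 0.0134) below the fold minimum. Its group means had the order of those of SPRY2. The difference between histamine and IL6 had a log2 change of 0.51 (adjusted p = 7.91e-05).

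DUSP10, which acts on p38 and JNK, moved the other way between the cytokines. It read 5.18, 5.02 and 5.23 untreated, 4.72, 4.79 and 4.69 after IL6, and 5.70, 5.51 and 5.32 after IFNα. Neither change from untreated passed the fold minimum (log2 changes -0.41 and 0.37, adjusted p 0.0101 and 0.0181). The cytokines differed by 0.78 on the log2 scale (1.71-fold lower after IL6, adjusted p = 2.64e-05), and the IL6 arrays were dim, below the lower quartile. Its second probe set differed by -0.53. After histamine DUSP10 read 4.72, 4.72 and 4.94 (log2 change -0.35, adjusted p = 0.0132).

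Of the other DUSP members, none was called on its brightest probe set. DUSP26, an atypical phosphatase of neural and neuroendocrine tissue, was lower by adjusted p alone after each treatment, with log2 changes of -0.14, -0.38 and -0.45 after IL6, IFNα and histamine, and missed it after IL6 without the raised-hypoxia arrays (-0.14, adjusted p = 0.163). It read 10.74, 10.82 and 10.71 untreated and 10.25, 10.34 and 10.32 after histamine. Its other probe set had -0.18, -0.44 and -0.60 after IL6, IFNα and histamine. The histamine change of that probe set passed the fold minimum (adjusted p = 3.21e-06). DUSP3 had -0.44 after IFNα (adjusted p = 0.00189), and its other probe set had 0.15 (adjusted p = 0.662). DUSP7, a cytoplasmic ERK phosphatase, varied most within the cytokine groups, with 8.28, 8.70 and 9.17 after IL6 and 8.48, 8.59 and 9.77 after IFNα against 8.41, 8.56 and 8.47 untreated. Its highest arrays in each group were the ones with the highest hypoxia genes, and no change was called (log2 0.24 and 0.47, adjusted p 0.588 and 0.288). After histamine it read 8.84, 9.01 and 9.11, all above untreated (log2 change 0.51, adjusted p = 0.181). When the raised-hypoxia arrays were left out, DUSP7 had -0.20 after IL6, the opposite direction, and 0.055 after IFNα (adjusted p 0.246 and 0.726), and the same 0.51 after histamine had adjusted p = 5.71e-05, below the fold minimum.

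**Figure D2:**
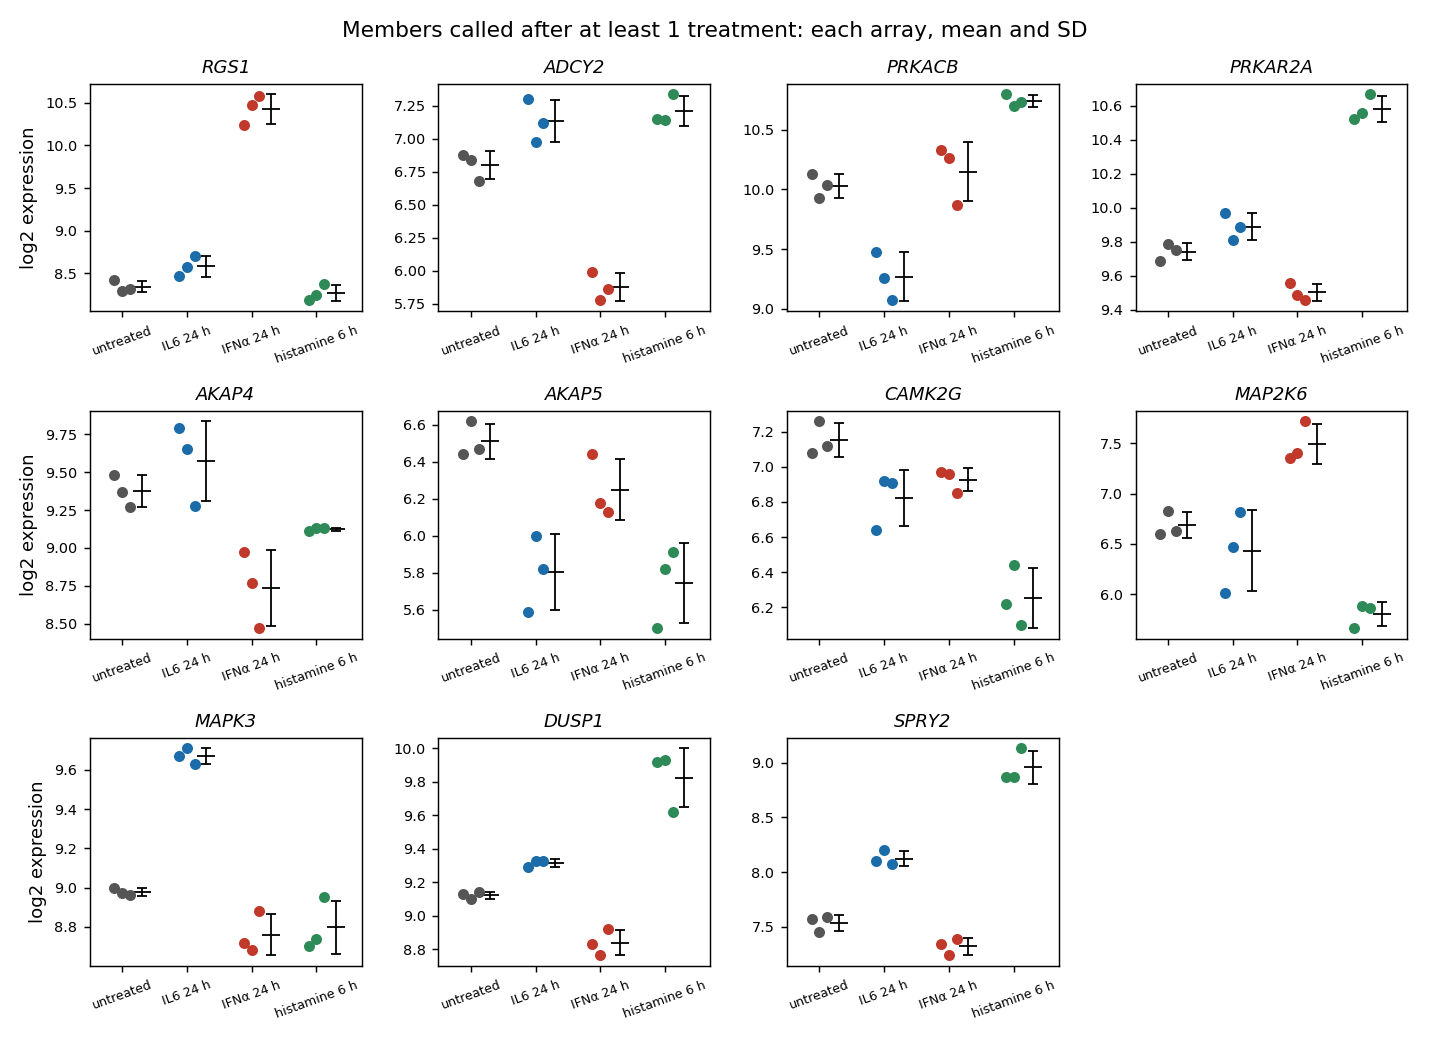
log2 expression (y axis) of the 11 members called after at least 1 treatment, with each of the 3 arrays of a group as a point and the mean and SD as a bar beside them. SPRY2 and DUSP1 were highest after histamine and lowest after IFNα, RGS1 was high after IFNα (10.24 to 10.58), and PRKACB lay below untreated after IL6 and above it after histamine.

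RGS1, which accelerates GTP hydrolysis by Gi and Gq and is best known from lymphocytes, gave the largest change of any member. It read 8.42, 8.30 and 8.32 untreated and 10.24, 10.47 and 10.58 after IFNα, a 4.24-fold rise (log2 change 2.08, SE 0.09; limma, adjusted p = 1.20e-10). IL6 arrays read 8.47, 8.57 and 8.71 and histamine arrays 8.19, 8.25 and 8.38, with log2 changes of 0.24 and -0.07 that were not called. RGS1 was 3.6-fold lower after IL6 than after IFNα (adjusted p = 4.19e-10) and 4.46-fold lower after histamine than after IFNα (adjusted p = 5.44e-11). With the raised-hypoxia arrays set aside, its log2 change was 2.01 after IFNα and 0.12 after IL6. Leukocyte markers are given beside it: in untreated cells CD14 read 7.32, ITGB2 6.64, CD68 5.93 and CD3E 5.41, above the lower quartile, and PTPRC 4.56, below it. After IFNα their log2 changes ran from -0.54 (ITGB2, adjusted p = 0.000374) to 0.26 (CD14), none of the 5 was called, and the mean of the list ran from -0.00 to 0.01 over the arrays. After IL6 CD14 rose 2.05-fold and ITGB2 fell by 0.95 on the log2 scale. The part of leukocytes in the RGS1 values was not tested.

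The remaining RGS members shifted by less. RGS10, a regulator of Gi, read 8.73, 8.73 and 8.74 untreated, 8.47, 8.60 and 8.55 after IL6, 9.09, 9.18 and 9.10 after IFNα and 9.21, 9.17 and 9.25 after histamine. It was thus lower after IL6 (-0.19, adjusted p = 0.0186) and higher after IFNα (0.39) and histamine (0.48, adjusted p = 6.13e-06), each below the fold minimum. Between histamine and IL6 it differed 1.59-fold (adjusted p = 2.27e-07), which was called. RGS16 had 0.48 after IFNα (6.36, 6.13 and 6.60 against 5.90, 5.99 and 5.76 untreated, adjusted p = 0.00411) and passed the call without IFNα repeat 2 (0.60). Its other probe sets had 0.09 and -0.10 after IFNα (adjusted p 0.645 and 0.384). RGS19 had 0.31 and RGS7 had -0.42 there (adjusted p 0.0113 and 0.0277).

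RGS5, known as a gene of pericytes and vascular smooth muscle, was bright at 13.13, 13.08 and 13.10 in untreated cells. After IL6 it read 12.38, 12.63 and 12.79, all lower (log2 change -0.50, adjusted p = 0.000153), below the fold minimum. Without IL6 repeat 3 (-0.60) or without the raised-hypoxia arrays (-0.72, 1.65-fold lower) it was called. Fibroblast and mural markers moved beside it: 1 of 5 (ACTA2) fell after IL6 and after IFNα and none rose, with list means of -0.33 to -0.22 on the IL6 arrays, -0.31 to -0.22 on the IFNα arrays and 0.25 to 0.35 on the histamine arrays. RGS5 had -0.18 after IFNα and -0.03 after histamine, and the part of mural cells in its values was not tested.

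Of the cAMP-making enzymes, ADCY2, a cyclase of neural tissue that protein kinase C and G protein beta-gamma subunits stimulate, fell after IFNα. It read 6.88, 6.84 and 6.68 untreated and 5.99, 5.78 and 5.86 after IFNα, a fall of 0.92 on the log2 scale (SE 0.09; limma, adjusted p = 5.39e-06) that was as large without IFNα repeat 3. After IL6 it read 7.30, 6.98 and 7.12 and after histamine 7.15, 7.14 and 7.34, above every untreated array in each case, with log2 changes of 0.33 and 0.41 below the fold minimum (adjusted p 0.0257 and 0.00375). Without the raised-hypoxia arrays the IL6 change was 0.50, also below it. ADCY2 was 2.39-fold higher after IL6 than after IFNα (adjusted p = 1.13e-07) and 2.52-fold higher after histamine than after IFNα (adjusted p = 3.94e-08).

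ADCY7 had 0.39 after histamine (adjusted p = 0.00573). ADCY1, a calcium-stimulated cyclase of neurons, and ADCY6, a cyclase that calcium inhibits, stayed between -0.13 and 0.15 in all 3 comparisons with untreated, and were not called. ADCYAP1R1, the receptor of the splanchnic neuropeptide PACAP, was dim (overall mean 4.74) and had log2 changes between -0.13 and -0.05.

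Protein kinase A subunits included 1 that was called in opposite directions after IL6 and histamine. PRKACB, the catalytic beta subunit, read 10.13, 9.93 and 10.04 untreated, 9.48, 9.26 and 9.07 after IL6 and 10.80, 10.70 and 10.73 after histamine. It fell by 0.76 on the log2 scale after IL6 (SE 0.11; limma, adjusted p = 0.000249) and rose 1.64-fold after histamine (log2 change 0.71, SE 0.11, adjusted p = 0.000169). The difference between histamine and IL6 was itself 2.78-fold (adjusted p = 1.83e-07). IFNα arrays read 10.33, 10.26 and 9.87 and overlapped untreated (log2 change 0.12, or 0.26 with adjusted p = 0.00483 without the raised-hypoxia arrays). In both cytokine groups PRKACB was lowest on the array with the highest hypoxia genes, and without the raised-hypoxia arrays the IL6 change was -0.55, below the fold minimum, with adjusted p = 0.000149. The second PRKACB probe set had -1.02 after IL6 (adjusted p = 0.00886), -0.05 after IFNα and 0.46 after histamine (adjusted p = 0.176).

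PRKAR2A, the type II alpha regulatory subunit that binds AKAP anchors, rose with histamine. It read 9.69, 9.79 and 9.75 untreated and 10.52, 10.56 and 10.67 after histamine, a 1.79-fold rise (log2 change 0.84, SE 0.05; limma, adjusted p = 4.82e-08). IL6 arrays read 9.97, 9.81 and 9.89 (log2 change 0.15, adjusted p = 0.0814, or 0.23 and 0.0427 without the raised-hypoxia arrays) and IFNα arrays 9.56, 9.49 and 9.46 (log2 change -0.24, adjusted p = 0.0065). PRKAR2A was 1.62-fold higher after histamine than after IL6 (adjusted p = 2.86e-07) and 2.11-fold higher than after IFNα (adjusted p = 9.61e-10). PRKACA, the catalytic alpha subunit, had -0.08, -0.10 and 0.01 after IL6, IFNα and histamine and was not called. PRKAR1A had -0.16, 0.03 and 0.14, PRKAR1B -0.27, -0.20 and -0.16, and PRKAR2B 0.02, -0.39 and -0.31. PRKAR2B varied widely within groups, from 6.78 to 7.55 after IL6 and from 6.35 to 7.09 after histamine. With the raised-hypoxia arrays left out, PRKAR2B had 0.44 after IL6 and -0.21 after IFNα (adjusted p 0.211 and 0.438), and PRKAR1B missed the adjusted p after both cytokines (0.0597 and 0.0562).

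AKAP5, which holds protein kinase A, protein kinase C and calcineurin at the membrane, read 6.44, 6.62 and 6.47 untreated, 5.59, 6.00 and 5.82 after IL6 and 5.50, 5.82 and 5.91 after histamine. It fell by 0.71 after IL6 and by 0.77 after histamine on the log2 scale (SE 0.12 each; limma, adjusted p 0.00119 and 0.000231). After IFNα it read 6.44, 6.18 and 6.13 and overlapped untreated (-0.26). Its other, dim probe set had -0.32 after IL6 and -0.34 after histamine, and with the mean of its probe sets both calls were lost (-0.51 and -0.55). Without the raised-hypoxia arrays the IL6 change was -0.92.

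AKAP4, an anchoring protein best known from the sperm flagellum, read 9.48, 9.37 and 9.27 untreated and 8.97, 8.77 and 8.47 after IFNα. It fell by 0.64 on the log2 scale (SE 0.12; limma, adjusted p = 0.00204). The call was lost without untreated repeat 1 (-0.58) and without IFNα repeat 3 or the raised-hypoxia arrays (-0.50 each). IL6 arrays read 9.79, 9.65 and 9.28 and overlapped untreated (0.42 on repeat 1 alone, without the raised-hypoxia arrays, adjusted p = 0.00626), and AKAP4 was 1.79-fold higher after IL6 than after IFNα (adjusted p = 0.000116). In both cytokine groups the lowest AKAP4 value was on the array with the highest hypoxia genes. AKAP8, a nuclear anchor, had -0.20, 0.30 and -0.34 after IL6, IFNα and histamine (adjusted p 0.0532, 0.00583 and 0.00119), and its other probe set had -0.24, 0.34 and -0.31. AKAP8 was 1.55-fold lower after histamine than after IFNα (adjusted p = 2.58e-06).

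None of the 15 members with a PDE symbol, not all of which are catalytic, was called in any comparison with untreated. PDE9A, a cGMP-selective enzyme, had a log2 change of 0.45 after IL6 (adjusted p = 0.0539), or 0.22 without the raised-hypoxia arrays (adjusted p = 0.378), with 7.69, 7.96 and 8.13 against 7.51, 7.57 and 7.34 untreated. Its IFNα arrays ran from 7.18 to 7.89, and again the highest cytokine arrays were those with the highest hypoxia genes. After histamine it read 7.05, 7.35 and 7.20 and was 1.66-fold lower than after IL6 (adjusted p = 0.00178). PDE6D, a prenyl-binding chaperone rather than a catalytic unit, had -0.47 after histamine (adjusted p = 7.52e-06), and PDE5A and PDE7B, both dim, had 0.30 and 0.35 after IL6 (adjusted p 0.0248 and 0.0139). When the raised-hypoxia arrays were left out, these were 0.29 and 0.15 (adjusted p 0.198 and 0.438), and neither passed.

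In the inositol phosphate branch, no PLC, ITPR or DGK member was called in any comparison with untreated. On their brightest probe sets PLCB4, ITPR1 and ITPR2 were lower after IL6 and histamine by adjusted p alone. PLCB4, a Gq-activated phospholipase C, read 10.08, 10.00 and 10.09 untreated, 9.73, 9.63 and 9.57 after IL6, 9.88, 9.88 and 9.80 after IFNα and 9.74, 9.73 and 9.77 after histamine. Its log2 changes were -0.41, -0.20 and -0.31 (adjusted p 4.53e-05, 0.0103 and 0.000214), and no treated array reached an untreated one. The other, much dimmer PLCB4 probe sets had 0.19 and 0.09 after IL6 and -0.04 and -0.02 after histamine. None of these passed the adjusted p. ITPR1, an inositol trisphosphate receptor, read 9.21, 9.17 and 9.21 untreated, 8.88, 8.91 and 8.82 after IL6 and 8.91, 8.86 and 8.98 after histamine (-0.33 and -0.28, adjusted p 0.000582 and 0.000767). ITPR2 had -0.41 and -0.30 there (adjusted p 0.00279 and 0.0094) and 0.11 after IFNα. The other ITPR2 probe set, below the lower quartile, had 0.08 after IL6 and 0.05 after histamine. ITPR3 had -0.13 after IL6 and 0.22 after histamine (adjusted p 0.258 and 0.0411). PLCB1 was not called, with changes between -0.27 and 0.12, or 0.41 after IL6 and -0.12 after IFNα without the raised-hypoxia arrays (adjusted p 0.0601 and 0.534), and PLCG1, which receptor tyrosine kinases activate, had 0.00, 0.04 and -0.17. All 3 diacylglycerol kinases stayed uncalled, with DGKA at -0.38 after histamine (adjusted p = 0.000565).

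Protein kinase C beta was lower after IL6. PRKCB read 8.45, 8.54 and 8.41 untreated, 7.87, 7.90 and 7.89 after IL6, 8.46, 8.51 and 8.53 after IFNα and 8.29, 8.32 and 8.45 after histamine. The IL6 change of -0.58 (SE 0.06; limma, adjusted p = 9.31e-06) fell short of the fold minimum, and passed it without untreated repeat 1 (-0.59), untreated repeat 3 (-0.61), IL6 repeat 2 (-0.59) or the raised-hypoxia arrays (-0.60). Its second probe set had -0.68 after IL6. Against IFNα it was 1.53-fold lower after IL6 (adjusted p = 1.58e-06), a call lost with cyclic loess or median centring (-0.58 each). PRKCZ, an atypical isoform, had -0.20, -0.27 and -0.50 after IL6, IFNα and histamine, PRKCI had -0.36 after IL6, PRKCD had 0.34 after IL6, and PRKCA, a classical isoform, was between -0.24 and 0.07. Without the raised-hypoxia arrays PRKCI, PRKCD and PRKCZ had -0.17, 0.22 and -0.25 after IL6 (adjusted p 0.467, 0.255 and 0.0841), none past the adjusted p, and PRKCA -0.12.

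CAMK2G, a subunit of calcium and calmodulin dependent kinase II, fell after histamine. It read 7.08, 7.26 and 7.12 untreated and 6.22, 6.44 and 6.10 after histamine, a fall of 0.90 on the log2 scale (SE 0.10; limma, adjusted p = 6.73e-06). IL6 arrays (6.64, 6.92 and 6.91) and IFNα arrays (6.97, 6.96 and 6.85) lay between, with -0.33 and -0.23, and IL6 repeat 1, the IL6 array outside the raised-hypoxia arrays, gave -0.51 (adjusted p = 0.0156). The other CAMK2G probe set, at an overall mean of 4.53, had -0.01 after histamine, and with the mean of both the change was -0.46 and was not called. Histamine arrays were 1.59-fold lower than IFNα arrays (adjusted p = 6.39e-05) and differed from IL6 arrays by -0.57 (adjusted p = 0.0004). On their brightest probe sets CAMK2D and CAMK1 were not called (log2 changes between -0.18 and -0.05). A dimmer CAMK1 probe set (overall mean 6.44) had 0.42 after IL6 (adjusted p = 0.0182), -0.20 after IFNα and -0.26 after histamine. This probe set was called higher after IL6 than after IFNα (0.61) and lower after histamine than after IL6 (-0.67). The remaining CAMK1 probe set, below the lower quartile, had 0.08, 0.08 and -0.04 after IL6, IFNα and histamine. The inhibitor CAMK2N2 had -0.28 after IL6 and -0.37 after IFNα (adjusted p 0.0093 and 0.00113).

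**Figure D3:**
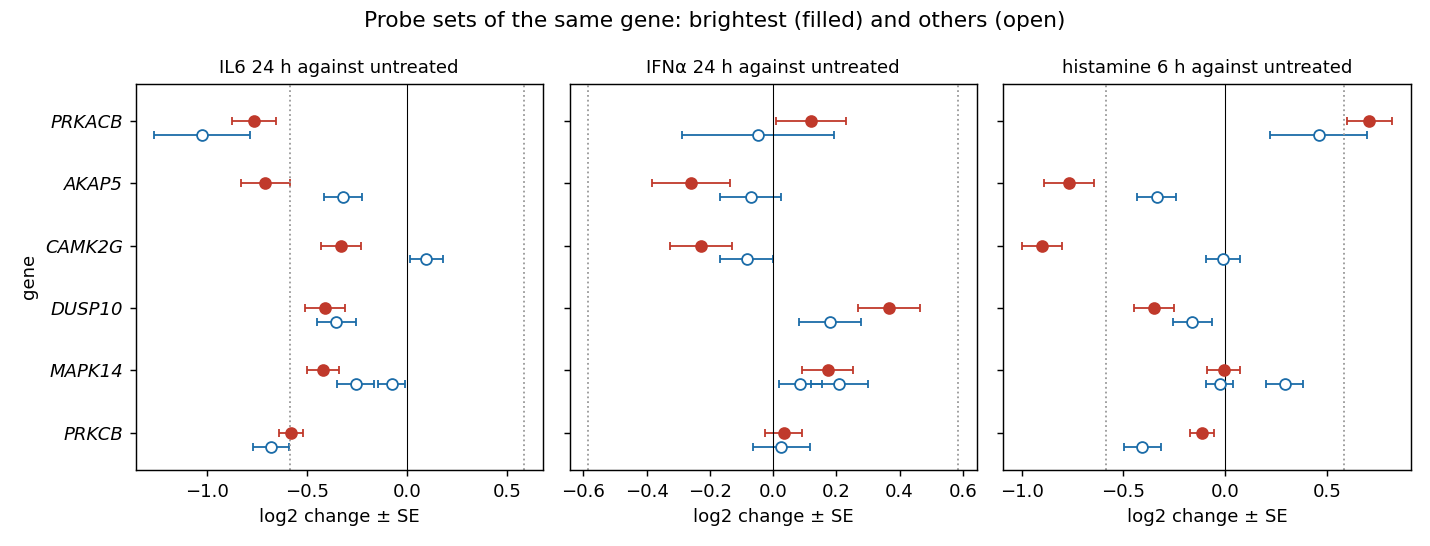
log2 change against untreated with its SE (x axis) of each probe set of 6 genes (y axis), with the brightest probe set filled in red and the others open in blue, and dotted lines at the 1.5-fold minimum. The probe sets of PRKCB and PRKACB lie on the same side of 0 after IL6, while the brighter CAMK2G probe set is at -0.90 and the other at -0.01 after histamine.

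In the kinase relay, MAPK3, which encodes ERK1, rose after IL6. It read 9.0, 8.97 and 8.96 untreated and 9.67, 9.71 and 9.63 after IL6, a 1.62-fold rise (log2 change 0.69, SE 0.07; limma, adjusted p = 7.37e-06) that had the same size without the raised-hypoxia arrays. After IFNα it read 8.72, 8.68 and 8.88 and after histamine 8.70, 8.74 and 8.95, below every untreated array in each case, with log2 changes of -0.22 and -0.18 (adjusted p 0.0442 and 0.0616). MAPK3 was 1.88-fold higher after IL6 than after IFNα (adjusted p = 1.16e-07) and 1.83-fold lower after histamine than after IL6 (adjusted p = 2.84e-07).

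MAP2K6, the kinase that activates p38, went in opposite directions after IFNα and histamine. It read 6.60, 6.83 and 6.63 untreated, 7.35, 7.40 and 7.72 after IFNα and 5.66, 5.88 and 5.86 after histamine. IFNα raised it 1.75-fold (log2 change 0.80, SE 0.16; limma, adjusted p = 0.00247) and it fell by 0.89 on the log2 scale after histamine (adjusted p = 0.000569). The difference between histamine and IFNα was 3.23-fold (adjusted p = 8.65e-07). IL6 arrays were spread, at 6.01, 6.47 and 6.82, in the order of their hypoxia genes, and gave -0.25 (adjusted p = 0.303). With the raised-hypoxia arrays left out, the lone IL6 array gave -0.68 (adjusted p = 0.002) and the IFNα change was 0.69, and both were called.

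After histamine 4 of the 5 MAP2K genes were higher by adjusted p alone, each below the fold minimum, where 15.1% of all probe sets were. MAP2K1 (10.62, 10.54 and 10.59 untreated, 10.95, 10.94 and 11.07 after histamine), the activator of ERK, had 0.40 (adjusted p = 6.7e-05). MAP2K2, MAP2K3 and MAP2K4 had 0.29, 0.33 and 0.36 (adjusted p 0.00595, 0.000442 and 0.000356). MAP2K3 also had 0.41 after IL6 (adjusted p = 0.000225). MAPK14, which encodes p38 alpha, had -0.42 after IL6 and 0.17 after IFNα, and was 1.51-fold lower after IL6 than after IFNα (adjusted p = 5.40e-05). That call was lost without any of 3 arrays (IL6 repeat 3, IFNα repeat 1 or 2), with cyclic loess, with median centring, with the mean of its probe sets or without the raised-hypoxia arrays (-0.58 to -0.41).

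MAPK10, the neuronal JNK3, was below untreated in every treated array, with -0.44, -0.26 and -0.29 after IL6, IFNα and histamine (adjusted p 3.36e-05, 0.0024 and 0.00051). MAPK8 had 0.10, -0.08 and 0.25. The JNK scaffolds MAPK8IP1 and MAPK8IP2 had -0.33 and -0.27 after IFNα and -0.18 and -0.27 after histamine. MAPK13, the delta isoform of p38, was 1.58-fold higher after histamine than after IL6 (adjusted p = 0.000187). No MAP3K was called on its brightest probe set. MAP3K12, an axonal kinase, had -0.52 after histamine (9.37, 9.48 and 9.41 against 8.78, 8.94 and 8.99, adjusted p = 1.02e-05). Its other probe sets had -0.70 there, past the fold minimum (adjusted p = 0.00147), and -0.11 (adjusted p = 0.432). MAP3K14, the NF-kappaB inducing kinase, had 0.00, 0.07 and -0.08 after IL6, IFNα and histamine.

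Between the cytokines, which shared the 24 h time, 4 members were higher and 6 lower after IL6 than after IFNα (background 2.82% and 3.29%). The higher ones were ADCY2, MAPK3, AKAP4 and SPRY2, and the lower ones RGS1, MAP2K6, PRKACB, DUSP10, PRKCB and MAPK14. PRKACB was 1.84-fold and MAP2K6 2.08-fold lower after IL6 (adjusted p 2.37e-05 and 0.000144). By adjusted p alone 19 were higher and 21 lower (background 13.7% and 14.8%, 28.5% in all). The brightest probe sets of all genes gave 35.1% there, beside 36.7% of the members. Without the raised-hypoxia arrays 5 were called higher and 9 lower (background 3.36% and 3.71%): PRKAR2B joined the higher ones, AKAP5, ITPR2, RGS10 and SPRYD7 joined the lower ones, and MAPK14 left them.

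Set against IL6, 5 members were higher after histamine (PRKACB, PRKAR2A, SPRY2, RGS10 and MAPK13; background 3.49%) and 3 lower (MAP2K6, MAPK3 and PDE9A; background 2.71%). Set against IFNα, 6 were higher (ADCY2, DUSP1, PRKACB, PRKAR2A, SPRY2 and SPRYD3; background 4.91%) and 5 lower (AKAP8, CAMK2G, DUSP10, MAP2K6 and RGS1; background 4.58%). These contrasts join agent and time.

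By adjusted p alone, 33 members differed from untreated after IL6 (10 higher and 23 lower), 25 after IFNα (8 and 17) and 38 after histamine (18 and 20). All probe sets gave 17.4% after IL6 (6.68% higher and 10.7% lower), 16.7% after IFNα (6.74% and 9.99%) and 31.6% after histamine (15.1% and 16.4%). The brightest probe sets of all genes gave 21.3%, 22.1% and 40.9% there, beside 30.3%, 22.9% and 34.9% of the members. The 3 treated arrays did not overlap the 3 untreated ones for 48 members after IL6 (19 higher and 29 lower, background 33.9%), 49 after IFNα (15 and 34, background 32.9%) and 59 after histamine (27 and 32, background 43.7%). Among the brightest probe sets of all 9155 genes, 1473 were higher and 2061 lower without overlap after IL6. These counts were 1506 and 2126 after IFNα, and 2478 and 2414 after histamine. Where another probe set existed for a member past the adjusted p, its sign was the same in 17 of 22 cases for IL6, in 8 of 11 for IFNα and in 23 of 27 for histamine, and 0 passed the adjusted p in the opposite direction.

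**Figure D4:**
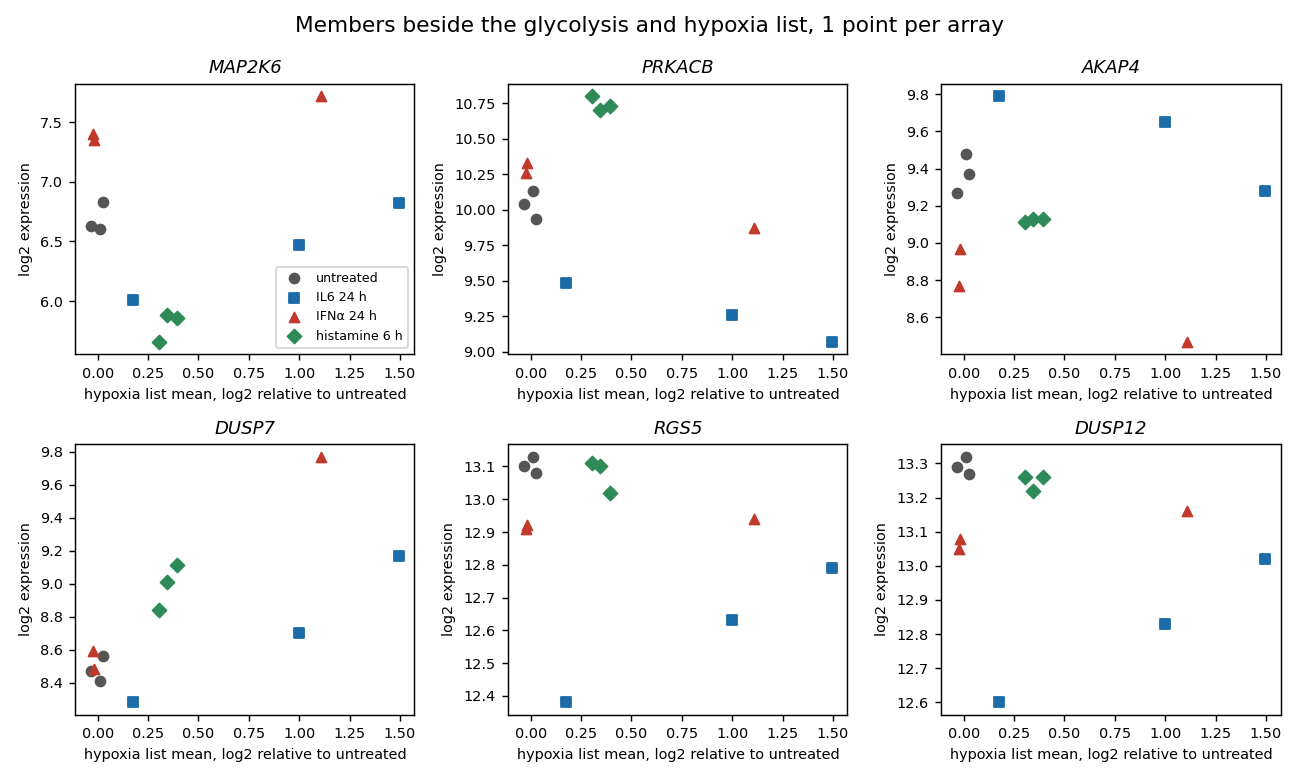
log2 expression (y axis) of 6 members against the mean of 10 glycolysis and hypoxia genes relative to untreated (x axis, log2), with 1 point per array and shape and colour for the group. MAP2K6 ran from 6.01 to 6.82 over the IL6 arrays in the order of the list mean, PRKACB was lowest where the list was highest in each cytokine group, and DUSP7 was highest there (9.17 and 9.77).

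DUSP12, an atypical phosphatase, followed the same order among IL6 arrays on its brightest probe set. The other probe set did not. It read 9.56, 9.54 and 9.47 untreated and 9.49, 9.45 and 9.38 after IL6 (log2 change -0.08, adjusted p = 0.302). Near the highest readings of the arrays (14.01 to 14.14), the brightest probe set read 13.32, 13.27 and 13.29 untreated. On IL6 repeats 1, 2 and 3 it read 12.60, 12.83 and 13.02 (log2 change -0.48, adjusted p = 0.0003). When the raised-hypoxia arrays were left out, its IL6 change was -0.69 and was called. In that setting 1 member (MAPK3) was higher after IL6 and 6 were lower (AKAP5, DUSP12, MAP2K6, MAPK13, PRKCB and RGS5), in place of 2 and 2 (background 1.73% and 1.17%). After IFNα it gave 2 higher and 1 lower (background 2.19% and 1.05%), and after histamine 4 and 3 (background 3.03% and 2.74%). The part of the hypoxia genes in the values of these members was not tested.

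Cortical cell markers also moved with the treatments. Of 5 (STAR, CYP11A1, CYP17A1, CYP21A2 and HSD3B1), 3 fell after IL6, 5 fell after IFNα and 2 rose after histamine. Their mean relative to untreated ran from -0.88 to -0.65, from -1.06 to -0.91 and from 0.60 to 0.65 on these arrays. Chromaffin markers (8 measured) ran from -0.26 to 0.05, from -0.03 to 0.30 and from 0.37 to 0.51. ADCY2, DUSP1, SPRY2 and PRKAR2A likewise lay below untreated after IFNα and above it after histamine, but above it after IL6. SPRY2 did not pass the adjusted p after IFNα. Other called members ran against the cortex markers. MAP2K6 had 0.80 after IFNα and -0.89 after histamine, and RGS1 had 2.08 after IFNα. CAMK2G and AKAP5 had -0.90 and -0.77 after histamine, and MAPK3 had 0.69 after IL6. PRKACB was, like the cortex markers, low after IL6 (-0.76) and high after histamine (0.71), with 0.12 after IFNα. The part of cortical cells in these values was not tested.

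Genes around the families were taken from lists of the same pathways, chosen with earlier results of these data known. Each is given on its brightest probe set unless another is named. Over all probe sets 1.44% were called higher and 0.949% lower after IL6, 2.18% and 1.18% after IFNα, and 2.99% and 2.71% after histamine. By adjusted p alone 17.4% of all probe sets passed after IL6 and 16.7% after IFNα. Among the brightest probe sets of all genes 21.3% and 22.1% did. The list counts below are descriptions to be set beside these shares. Of 19 heterotrimeric G protein genes 3 rose and 1 fell after histamine, and none was called after either cytokine. By adjusted p alone 4 passed after each cytokine, near the background. GNG2 (9.81, 9.95 and 9.83 untreated, 10.56, 10.65 and 10.73 after histamine) and GNG11, gamma subunits, rose 1.72-fold each, and GNAI1 rose 1.5-fold. GNAO1, the alpha subunit of Go, fell by 0.87, and its other probe set by 0.83, on the log2 scale. GNA11, a Gq family subunit, had 0.02, -0.01 and -0.01 after IL6, IFNα and histamine. The list medians were 0.03, -0.05 and 0.06.

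Among 7 kinases downstream of ERK and p38, 2 rose and 1 fell after histamine (list median 0.21) and none was called after the cytokines. By adjusted p alone 2 passed after IL6 and 1 after IFNα (background 17.4% and 16.7%). RPS6KA3, the ERK-activated kinase RSK2, read 6.63, 6.75 and 6.61 untreated and 8.72, 8.66 and 8.83 after histamine, a 4.21-fold rise (log2 change 2.07, SE 0.13; limma, adjusted p = 3.48e-08). RPS6KA5, the related kinase MSK1, fell by 1.17 on the log2 scale, from 9.02, 9.32 and 9.20 to 7.85, 8.11 and 8.08. MAPKAPK3, a target of p38, rose 1.66-fold. Of 18 RAS, RAF and adaptor genes, the RAS inhibitor RASA2 rose 1.53-fold after histamine and none was called after the cytokines. The list medians were 0.09, -0.06 and -0.02 after IL6, IFNα and histamine. By adjusted p alone 5 passed after IL6 and 2 after IFNα (background 17.4% and 16.7%).

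Of 16 measured genes of calcium handling and calcineurin, 1 rose after IL6, 1 fell after IFNα and 2 rose after histamine (list medians 0.07, -0.02 and 0.08). RCAN1, an inhibitor of calcineurin that calcineurin itself induces, read 9.57, 9.42 and 9.40 untreated, 10.34, 10.26 and 10.26 after histamine (1.77-fold) and 10.03, 10.04 and 10.04 after IL6 (log2 change 0.57, below the fold minimum). ATP2A2, the calcium pump of the endoplasmic reticulum, rose 1.60-fold after histamine. PPP3CC, a catalytic subunit of calcineurin, rose 1.95-fold after IL6 (7.37, 7.42 and 7.36 against 8.30, 8.42 and 8.31) and had -0.52 after IFNα. RCAN2 fell by 0.85 on the log2 scale after IFNα, to a mean below the lower quartile.

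Transcription factors that ERK, calcium or cAMP can induce had 6 of 25 higher and 1 lower after IL6, 0 and 2 after IFNα, and 6 and 2 after histamine (list medians 0.18, 0.04 and 0.15). These shares compare with 1.44% and 0.949%, 2.18% and 1.18%, and 2.99% and 2.71% of all probe sets. Those higher after IL6 were CREM, ETS2, ATF3, JUNB, JUN and KLF10, with log2 changes from 0.63 to 1.33, and NR4A2 was lower (-0.85). Without the raised-hypoxia arrays JUNB (0.35) and KLF10 (0.52) were no longer called after IL6 and KLF4 was (0.75). CREM encodes cAMP-responsive activators and repressors. Its brightest probe set read 8.26, 8.40 and 8.25 untreated, 9.77, 9.57 and 9.56 after IL6 and 10.93, 10.80 and 10.81 after histamine. Other CREM probe sets are not given here, so these values stand for that probe set alone. Those lower after IFNα were ATF3 and MYC (-0.83 and -1.46). Those higher after histamine were CREM, NR4A1, FOS, EGR1, NR4A2 and ETS2, with log2 changes from 0.60 to 2.54, and those lower were ATF3 and KLF4 (-0.73 and -0.80).

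Of 18 other inhibitors of cytokine and growth factor signalling, 4 rose after IL6, 1 after IFNα and 3 after histamine, and 2 fell after histamine (list medians 0.10, 0.01 and -0.04). TRIB1, a pseudokinase that directs substrates to degradation, rose 3.52-fold after IL6 (7.66, 7.51 and 7.42 against 9.58, 9.29 and 9.16) and 1.79-fold after histamine. ERRFI1, the inhibitor of the EGF receptor, rose 2.22-fold after histamine and 1.56-fold after IL6, where its arrays read 9.17, 9.61 and 10.02 in the order of their hypoxia genes. With the raised-hypoxia arrays left out, its IL6 change was 0.21 and was not called. SOCS2 rose 1.55-fold after IL6, a call lost without the raised-hypoxia arrays (0.54), and 1.66-fold after IFNα. SOCS3, the inhibitor of gp130 signalling, rose 2.43-fold after IL6 from a level below the lower quartile. After histamine SOCS4 rose 1.53-fold, and PTPN6, a tyrosine phosphatase, and TRIB2 fell by 0.76 and 0.85 on the log2 scale. Of 17 receptor genes 2 rose after IL6, 1 fell after IFNα, and 2 rose and 2 fell after histamine (list medians 0.03, -0.10 and 0.04). NTRK2, the BDNF receptor, read 7.91, 7.92 and 7.89 untreated, 9.39, 9.43 and 9.46 after IL6, 6.59, 6.49 and 6.67 after IFNα and 9.50, 9.50 and 9.62 after histamine. It rose 2.87-fold after IL6 and 3.1-fold after histamine and fell by 1.32 on the log2 scale after IFNα. PTGER3, a prostaglandin E2 receptor, rose 1.61-fold after IL6 and fell by 0.73 on the log2 scale after histamine. After histamine IGF1R, the IGF1 receptor, rose 1.94-fold and CHRNB4, a nicotinic receptor subunit, fell by 0.67 on the log2 scale. HRH1, the histamine H1 receptor, read 8.74, 8.68 and 8.71 untreated and 9.08, 8.91 and 9.07 after histamine (log2 change 0.31, adjusted p = 0.00893), below the fold minimum. IL6R and IFNAR1 were not called after any treatment (log2 changes between -0.22 and 0.17).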

How the data were processed

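Biotin-labelled total RNA was hybridised to Affymetrix arrays (per the labels' protocols). The authors deposited log2 values of 24128 probe sets on 12 arrays, and the submitters' processing notes name RMA. No version of RMA is given in the sources used here. RMA normalises arrays to each other and compresses small differences of dim transcripts. Precision is limited by the 3 arrays of a group.

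Groups came from the sample titles. Leaving out 112 control probe sets gave 24016 to test. The platform's annotation named the genes: 13292 probe sets had 1 symbol, 86 several and 10638 none. All 109 members were matched by gene identifier to the cattle gene table of RefSeq (ARS-UCD2.0), with no change of symbol. No sequences were used here.

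limma 3.58.1 in R 4.3.3 fitted a mean per group over all 12 arrays, using eBayes with trend=TRUE, and p-values were adjusted by Benjamini-Hochberg over every probe set tested. Standard errors come from this fit. On simulated data for histamine against untreated (24016 probe sets), 54% of 1.5-fold, 98% of 2-fold and 100% of 4-fold changes were recovered. The 1.5-fold changes were set exactly at the fold minimum, so many must miss the call at any precision. Noise was drawn independently for each probe set, without shared array effects such as that of the raised-hypoxia arrays. The sample titles state no pairing of arrays by repeat number. Members, lists and tests were chosen with earlier results of these data known. Named were, per comparison, up to 10 called members each way whose arrays did not overlap, members called after more than 1 treatment, the brightest of each family, a fixed set, and called genes of the pathway lists with HRH1, IL6R and IFNAR1. Members outside this rule were named after their values were seen: AKAP8, ADCY7, CAMK2N2, DUSP3, DUSP7, DUSP26, MAP2K3, MAP2K4, MAPK10, MAPK13, MAPK8IP1, PDE5A, PDE7B, PDE9A, PLCB4, PRKAR1B, PRKCD, PRKCI, RGS7, RGS10, RGS19 and, of the lists, GNA11. Alternatives were no fold minimum, no trend, leaving out the dimmer 50% of probe sets, cyclic loess, median centring, the compared groups alone, a replicate block, the mean of a gene's probe sets, each array left out, and, chosen after seeing the data, 3 arrays left out. Figures used matplotlib 3.10.9 in Python 3.11.15.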

Additional observations from a re-analysis of the deposited data

How the results depend on the processing

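No named member changed direction under any alternative in which it was called. With the adjusted p alone and no fold minimum, the members called higher and lower numbered 10 and 23 after IL6, 8 and 17 after IFNα, 18 and 20 after histamine, and 19 and 21 for IL6 against IFNα. Leaving out the dimmer 50% of probe sets left several members untested, among them the called AKAP5 and DUSP10. Of 180 results of named members (1 per member and comparison), 136 could be repeated there. Among the members still tested, 1 was lower after IL6, 2 after histamine and 5 for IL6 against IFNα, and 47 differed among the groups. With the mean of a gene's probe sets 1 fell after histamine. Leaving out 1 array in turn gave 1 to 3 higher and 2 to 3 lower after IL6, 2 to 3 higher and 1 to 2 lower after IFNα, 4 to 5 higher and 5 to 8 lower for IL6 against IFNα, 58 to 65 members that differed among the groups, and the same 4 and 3 after histamine. Without the 3 arrays with raised hypoxia genes, 1 was higher and 6 lower after IL6, and 1 lower after IFNα. The repeat numbers were used as a replicate block, although the sample titles state no pairing by them. Of 18 same-number pairs, 7 had deviations correlated above 0.1 (range -0.07 to 0.60), and other pairs ranged from -0.61 to 0.37. Of 12 arrays, 9 correlated best with their own number, a hint from the data and not the design. With the replicate block the counts were the same in every comparison (2 and 2, 2 and 2, 4 and 3, 4 and 6) and 64 members differed among the groups. Dim readings limit what can be seen of members below the lower quartile.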
